A study of Mus musculus with 40 samples.

Results

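10 genes of acid and base transport are described here in the kidneys of mice dosed with dioxin: Atp6v1b1, Atp6v0d2, Atp6v1g3, Slc4a1, Slc4a9, Slc26a4, Foxi1, Car2, Rhbg and Rhcg. They were matched by symbol, as genes known from the intercalated cell of the collecting duct. They are 10 of the 55359 gene identifiers counted, and all 10 passed the filter on low counts that left 17345 genes for testing. The libraries are bulk RNA sequencing of the right kidney of 40 male C57BL/6 mice (C57BL/6NCrl in the series' design text) bought from Charles River, with 1 mouse per library. TCDD, a dioxin that activates the aryl hydrocarbon receptor (AhR), was given in sesame oil by gavage at 4-day intervals over 28 days, from 30 to 58 days of age. The 7 dosed groups received 0.03, 0.1, 0.3, 1, 3, 10 or 30 µg/kg and the vehicle group received sesame oil alone, with 5 mice in each of the 8 groups. All mice were of a wild-type strain and the labels name no genetic change.

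Intercalated cells sit among the principal cells of the connecting tubule and collecting duct and set the final acid content of urine. Type A cells pump protons into the urine with a vacuolar ATPase (V-ATPase) and return bicarbonate to the blood through the exchanger AE1, the product of Slc4a1, while type B cells secrete bicarbonate through pendrin, the product of Slc26a4. The transcription factor Foxi1 is needed for both types to form, the cytosolic carbonic anhydrase Car2 supplies protons and bicarbonate, and the Rh glycoproteins Rhbg and Rhcg carry ammonia across the basolateral and apical membranes.

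Gene counts summed to 15278423 to 25575317 per library. Values below are counts-per-million (CPM) values, made with scaled library sizes. The AhR target Cyp1a1 averaged 2.37 CPM in vehicle, 24.7 at 0.3 µg/kg, 294 at 3 µg/kg and 2537 at 30 µg/kg, in the order of the labelled doses from 0.1 µg/kg upward. The kidney markers Slc34a1 and Umod averaged 7208 and 964 CPM in vehicle. The label for the organ is kidney, and the ontology code beside it is that of liver. A gene is called changed where the adjusted p of edgeR's quasi-likelihood test over all genes is under 0.05, and fold changes are on the log2 scale with their standard error (SE).

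In the results that follow, Atp6v1b1 and Rhcg fell with dose. Group means of Slc26a4 lay below vehicle at every dose up to 10 µg/kg and not at 30 µg/kg. Promoter sequences are shown for these 3 members. Each is the 250 bases before the gene's start in RefSeq's GRCm38.p6 annotation, written 5′ to 3′ on the gene's strand, at chr6:83742767-83743016 (plus strand), chr7:79617658-79617907 (minus strand) and chr12:31559985-31560234 (minus strand) in that order. Capitals mark matches, on either strand, to the forkhead-type motif TGTTTNC, which contains TGTTTAC, or to the AhR core GCGTG.
Atp6v1b1: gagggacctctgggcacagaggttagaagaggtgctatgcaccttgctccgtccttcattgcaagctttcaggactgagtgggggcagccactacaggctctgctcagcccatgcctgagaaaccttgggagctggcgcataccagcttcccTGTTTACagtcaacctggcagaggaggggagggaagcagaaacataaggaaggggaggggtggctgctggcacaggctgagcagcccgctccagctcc
Rhcg: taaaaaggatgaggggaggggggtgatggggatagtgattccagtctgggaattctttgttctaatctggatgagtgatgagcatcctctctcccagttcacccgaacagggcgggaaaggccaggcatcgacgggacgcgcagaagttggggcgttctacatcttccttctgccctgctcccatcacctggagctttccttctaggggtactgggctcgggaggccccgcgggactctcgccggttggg
Slc26a4: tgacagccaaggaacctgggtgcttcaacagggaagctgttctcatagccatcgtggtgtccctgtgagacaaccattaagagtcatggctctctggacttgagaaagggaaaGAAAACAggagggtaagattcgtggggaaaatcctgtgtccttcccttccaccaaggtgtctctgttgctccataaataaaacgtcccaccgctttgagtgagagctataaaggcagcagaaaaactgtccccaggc
The table of promoters held 5 members, these 3 with Atp6v1g3 and Foxi1. TGTTTNC was found once in each of Atp6v1b1, Atp6v1g3, Foxi1 and Slc26a4, with its first base 98, 136, 217 and 137 bases before the start, and not in Rhcg. Of 32851 promoters of the same length, 17.8% held it. The stricter TGTTTAC was found in Atp6v1b1, at the same place, and in 3.17% of all promoters. GCGTG was in none of the 5 windows and in 28.2% of all promoters. These are matches of letters in a short window and no measure of binding.

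Per length of exon, the members spanned a wide range of levels in vehicle. CPM per kilobase of exon (RPKM) was highest for Car2, at 205 ± 33.0 (SD, n = 5), then for Rhcg at 61.6 ± 4.81 and Slc26a4 at 39.7 ± 2.47. The proton pump genes Atp6v1b1 (27.3 RPKM) and Atp6v1g3 (26.5 RPKM) overlapped each other in their library ranges. Slc4a9 (18.2 RPKM), Foxi1 (14.5), Atp6v0d2 (14.0) and Slc4a1 (10.5) followed, and each overlapped the next. Rhbg was lowest at 1.43 ± 0.535 RPKM and did not overlap Slc4a1. In GENCODE M21, 61.4% of its exonic bases are shared with the gene model Gm38392, and ambiguous reads were left out. The length used was that of all its exons, so its level may be understated.

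At 30 µg/kg, 4 members fell (Atp6v1b1, Slc4a1, Car2 and Rhcg), 1 rose (Slc4a9) and 5 were not called. Of all genes tested at that dose 7.55% were called lower and 8.39% higher, 15.9% in all. The members' median log2 fold change was -0.13 and that of all genes was 0.01. At 10 µg/kg, 4 members fell (Atp6v1b1, Slc4a1, Slc26a4 and Rhcg) and 0 rose, against 0.997% of all genes called lower, 3.82% called higher and 4.82% called in either direction. The members' median was then -0.27 and that of all genes -0.01. From 0.03 to 3 µg/kg the members' medians were -0.12, -0.04, -0.10, -0.14 and -0.20 in order of dose, and those of all genes were 0.001 to 0.009. In a fit of the slope over the rank of the 8 doses, 4 members fell (Atp6v1b1, Slc4a1, Rhbg and Rhcg) and 1 rose (Slc4a9). Of all genes, 8.84% had a falling slope and 11% a rising one, 19.8% in all. In 3 members, Atp6v1b1, Slc4a1 and Rhcg, all 5 libraries at 30 µg/kg lay below all 5 vehicle libraries, as in 2.83% of all genes. No member had all 5 above, as 3.59% of all genes did. The comparisons share the 5 vehicle libraries. In whole kidney RNA, fewer cells of a type and less RNA per cell cannot be told apart.

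**Figure D1:**
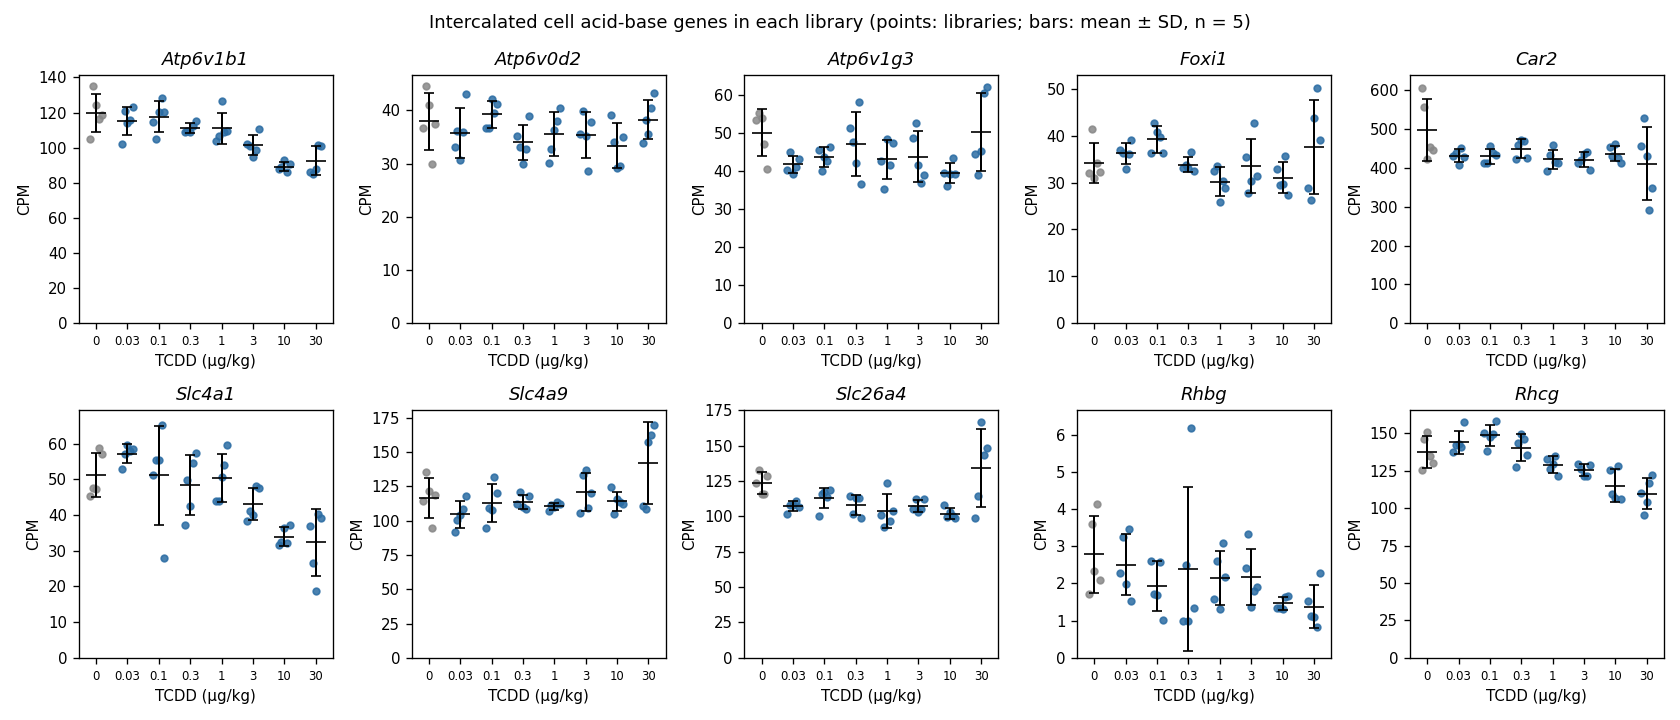
CPM of the 10 genes in each of the 40 libraries, by TCDD dose (0 is vehicle); points are libraries and bars the mean ± SD (n = 5), with each vertical axis starting at 0. Atp6v1b1, Slc4a1 and Rhcg had all 5 libraries at 30 µg/kg below all 5 vehicle libraries, while Slc26a4 and Slc4a9 had 3 of 5 above them.

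Of the 3 pump subunits made mainly in intercalated cells, Atp6v1b1 fell and the other two were not called. Atp6v1b1, which encodes the B1 subunit of the catalytic head, measured 105, 135, 124, 116 and 119 CPM in the vehicle libraries. It measured 87.5, 89.0, 92.9, 85.9 and 90.8 CPM at 10 µg/kg, and 86.2, 85.2, 87.8, 102 and 101 CPM at 30 µg/kg. All 10 of these treated libraries lay below the lowest vehicle library. The log2 change was -0.42 ± 0.07 (SE) at 10 µg/kg (edgeR adjusted p = 2.01e-05) and -0.37 ± 0.07 at 30 µg/kg (edgeR adjusted p = 8.26e-05). At 3 µg/kg it was -0.24 ± 0.07 with 4 of 5 libraries below vehicle, and the adjusted p of edgeR was 0.0702. The slope was -0.06 per dose step (edgeR adjusted p = 7.57e-08). The call at 30 µg/kg and the slope held in every alternative run.

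Atp6v0d2, the d2 subunit of the membrane sector, measured 30.0 to 44.5 CPM in vehicle and 33.9 to 43.3 CPM at 30 µg/kg. Its log2 change was 0.01, with a 95% interval of -0.19 to 0.22. Atp6v1g3, the G3 subunit of the stalk, measured 53.5, 55.3, 53.8, 47.1 and 40.5 CPM in vehicle and 44.5, 38.9, 45.2, 60.3 and 62.0 CPM at 30 µg/kg. At 30 µg/kg 2 libraries were above and 1 was below the vehicle range, and the log2 change was 0.01 (95% interval -0.22 to 0.23). At 10 µg/kg the change in Atp6v1g3 was -0.35 ± 0.11 (edgeR adjusted p = 0.0663), with 4 of 5 libraries below vehicle.

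Of 22 other listed V-ATPase subunit and accessory genes 21 were tested, and Atp6v1e2 was at 0 in vehicle and at 30 µg/kg. Of the 21, 4 fell and 1 rose at 30 µg/kg, with a median log2 change of -0.14. The slope over dose fell for 9 and rose for 0. Atp6v1c2, a C subunit isoform of kidney and lung, fell from a mean of 32.8 to 24.5 CPM (log2 change -0.42 ± 0.10, edgeR adjusted p = 0.00195). Atp6v0c, which forms the proton-carrying ring, fell from 291 to 256 CPM (-0.18 ± 0.06, edgeR adjusted p = 0.0191). Atp6v0a2, an a subunit isoform, fell from 83.5 to 69.0 CPM (-0.27 ± 0.07, edgeR adjusted p = 0.00371). Atp6v1d fell in slope (edgeR adjusted p = 0.00918) and its change at 30 µg/kg was -0.16 ± 0.06. Atp6v0a4, the a subunit of intercalated and proximal tubule cells, was the 1 gene that rose, from 285 to 338 CPM (0.25 ± 0.09, edgeR adjusted p = 0.0479), and is named after its value was seen.

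**Figure D2:**
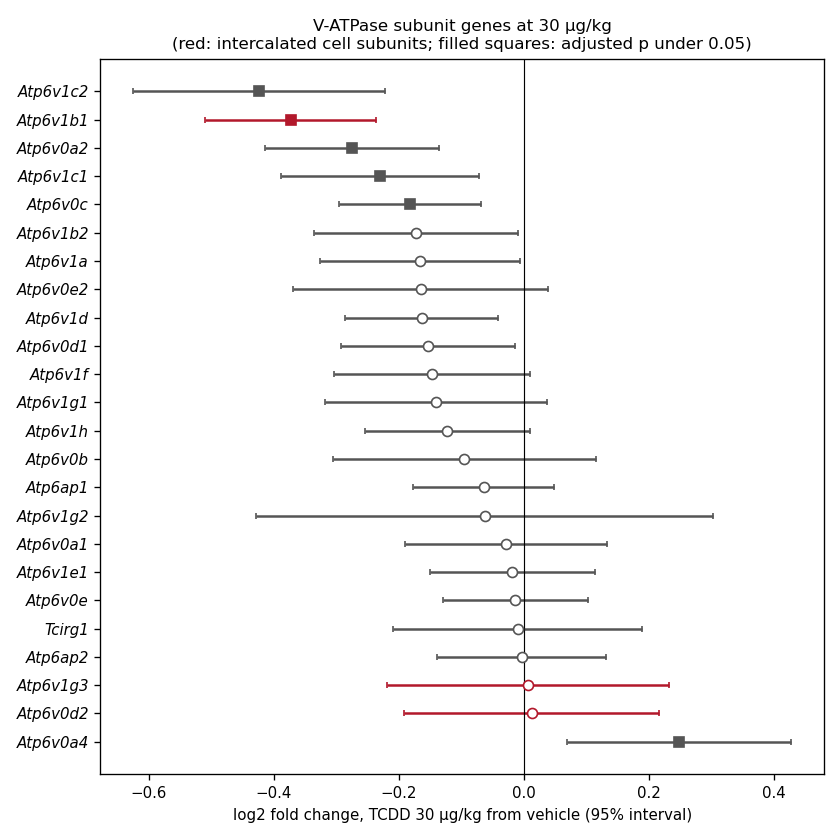
Log2 fold change at 30 µg/kg from vehicle (horizontal axis, with 95% intervals) of the 3 intercalated cell subunits, in red, and 21 other V-ATPase genes, in grey; filled squares have an adjusted p under 0.05. Atp6v1b1 and Atp6v1c2 lie farthest to the left, at -0.37 and -0.42, and Atp6v0a4 alone is called to the right of 0.

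Each intercalated cell subunit has a paralog made in many cells, and the ratio within a library needs no scaling. The log2 ratio of Atp6v1b1 to Atp6v1b2 was -2.04 ± 0.24 (SD, n = 5) in vehicle and -2.23 ± 0.40 at 30 µg/kg, a difference of -0.19 (two-sided exact permutation p = 0.365, adjusted p over 5 ratios = 0.456). The ratio of Atp6v0d2 to Atp6v0d1 differed by 0.17 (exact permutation p = 0.278, adjusted 0.456) and that of Atp6v1g3 to Atp6v1g1 by 0.13 (exact permutation p = 0.524). The smallest p that 5 against 5 libraries can give is 0.00794. None of the 3 differences passed the test.

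The 3 anion exchangers differed in direction. Slc4a1, whose product AE1 is the basolateral bicarbonate exchanger of type A cells and also the main membrane protein of red blood cells, measured 45.4, 47.7, 47.2, 58.7 and 57.1 CPM in vehicle. It measured 31.5, 32.3, 36.4, 32.2 and 37.3 CPM at 10 µg/kg and 37.0, 26.6, 18.6, 40.4 and 39.3 CPM at 30 µg/kg. All 10 treated libraries lay below the vehicle range, and replicates 2 and 3 were the lowest at 30 µg/kg. The log2 change was -0.59 ± 0.16 (SE) at 10 µg/kg (edgeR adjusted p = 0.0255) and -0.65 ± 0.16 at 30 µg/kg (edgeR adjusted p = 0.00455). The slope was -0.11 per dose step (edgeR adjusted p = 5.96e-05). A single low library was also seen at 0.1 µg/kg, where replicate 5 measured 27.9 CPM and the other 4 measured 51.3 to 65.2 CPM. The call at 30 µg/kg was lost in 1 alternative, a fit of the 10 vehicle and 30 µg/kg libraries alone (-0.66, edgeR adjusted p = 0.0552), and the slope was called in all 50 alternatives.

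Red blood cell genes were set beside Slc4a1 because both cell types make it. Of 10 listed red cell genes 6 were tested and 0 were called at 30 µg/kg by edgeR. Of those not tested, Rhag and Ermap averaged at most 0.302 CPM in either group. The list summed to 436 to 716 CPM in vehicle and 103 to 1363 CPM at 30 µg/kg. Hbb-bs, an adult beta globin, measured 654, 301, 51.1, 127 and 86.2 CPM in replicates 1 to 5 at 30 µg/kg, against 221 to 343 CPM in vehicle. Replicate 3 was lowest in both genes, and replicate 1 was far above vehicle in Hbb-bs and below it in Slc4a1. Over 40 libraries, as deviations from group means, Slc4a1 correlated with the summed red cell genes at r = 0.26, with summed thick ascending limb markers at 0.62 and with summed principal cell markers at 0.52. The r of Slc4a1 was 0.02 with the summed further intercalated cell genes described below. It was -0.61 with the summed acid-base and ammonia genes of the proximal tubule. The principal cell markers summed to 1239, 714, 667, 1129 and 1217 CPM in replicates 1 to 5 at 30 µg/kg, so the 2 libraries lowest in Slc4a1 were the 2 lowest in these markers. The part of either cell type in the result was not tested.

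Slc4a9, whose product AE4 is a basolateral transporter of type B cells, measured 114, 135, 121, 94.9 and 118 CPM in vehicle. It measured 111, 108, 157, 163 and 170 CPM at 30 µg/kg. Replicates 3 to 5 were above the vehicle range and replicates 1 and 2 inside it. The log2 change was 0.28 ± 0.10 (SE; edgeR adjusted p = 0.0428) and the slope was 0.03 per dose step (edgeR adjusted p = 0.0268). The SD of Slc4a9 was 29.8 CPM at 30 µg/kg, against 2.54 to 14.5 CPM in the other groups. The fit takes 1 spread per gene for all groups, so this SE and p may be too small. The call at 30 µg/kg was lost in 10 of 19 alternatives, among them leaving out vehicle replicate 1, 3, 4 or 5 or TCDD 30 replicate 3, 4 or 5 (0.21 to 0.29). The slope was lost in 6 of 50, and without the 30 µg/kg group it was 0.01 per dose step (edgeR adjusted p = 0.691). The other losses came with the stranded column 4 and without vehicle replicate 4 or TCDD 30 replicate 3, 4 or 5. At 10 µg/kg the change was -0.03 ± 0.10 (edgeR adjusted p = 0.924).

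Slc26a4, encoding pendrin, the apical exchanger of type B cells, measured 124, 133, 116, 116 and 128 CPM in vehicle and 108, 99.2, 103, 101 and 99.1 CPM at 10 µg/kg. All 5 libraries at 10 µg/kg lay below vehicle, by -0.27 ± 0.08 on the log2 scale (edgeR adjusted p = 0.048). All 5 also lay below vehicle at 0.03, 0.3 and 3 µg/kg, where Slc26a4 was not called. From 0.03 to 3 µg/kg the log2 changes were -0.20, -0.13, -0.19, -0.25 and -0.20 in order of dose, all against the same vehicle libraries. In 12 of 44 alternatives Slc26a4 was called at 1 or more of the doses from 0.03 to 10 µg/kg. At 30 µg/kg the libraries measured 98.5, 115, 167, 143 and 149 CPM, 3 above and 2 below the vehicle range, with a change of 0.12 ± 0.08 (edgeR adjusted p = 0.364). The 2 top doses were then compared directly, a contrast added after these values were seen. Slc26a4 was higher at 30 than at 10 µg/kg by 0.40 ± 0.08 (edgeR adjusted p = 0.00471), the only member called in that contrast, in which 1.19% of all genes were called higher and 2.7% in either direction. Without TCDD 30 replicate 3 it was 0.30 (edgeR adjusted p = 0.059). Slc4a9 differed by 0.32 ± 0.10 between those doses (edgeR adjusted p = 0.0705) and Atp6v1g3 by 0.35 ± 0.11 (edgeR adjusted p = 0.0813).

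The ratio of Slc26a4 to Slc4a1 sets the type B exchanger against the type A exchanger in each library. On the log2 scale it was 1.27 ± 0.21 (SD, n = 5) in vehicle, 1.59 ± 0.14 at 10 µg/kg and 2.08 ± 0.65 at 30 µg/kg. In 4 of 5 libraries at 30 µg/kg it was above all vehicle libraries. The difference from vehicle was 0.81 (two-sided exact permutation p = 0.0238), and it did not pass after adjustment over the 5 ratios (adjusted p = 0.119). It did not pass in 12 of 13 alternatives, and leaving out 1 library gave 0.54 (without TCDD 30 replicate 3, exact permutation test, adjusted p = 0.159) to 0.98 (without TCDD 30 replicate 1, adjusted p = 0.0397).

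**Figure D3:**
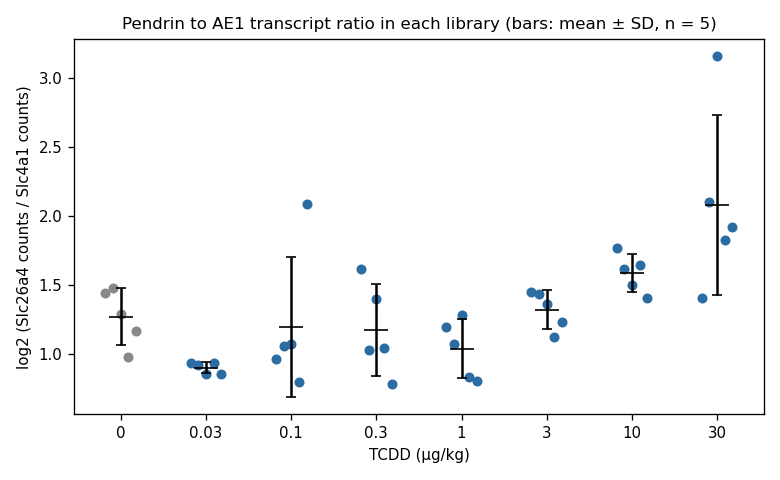
Log2 ratio of Slc26a4 to Slc4a1 counts in each library (vertical axis) by TCDD dose (0 is vehicle); points are libraries and bars the mean ± SD (n = 5). At 30 µg/kg the libraries range from 1.41 to 3.16, against 0.98 to 1.48 in vehicle, and 1 library at 0.1 µg/kg stands at 2.09.

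Both ammonia channel genes had falling slopes. Rhcg, encoding the Rh glycoprotein found on the apical membrane of intercalated and principal cells, measured 126, 146, 151, 135 and 130 CPM in vehicle. It measured 126, 109, 107, 128 and 106 CPM at 10 µg/kg and 110, 95.7, 104, 117 and 122 CPM at 30 µg/kg. All 5 libraries at 30 µg/kg were below vehicle, and 3 of 5 were at 10 µg/kg. The log2 change was -0.26 ± 0.07 (SE) at 10 µg/kg (edgeR adjusted p = 0.0116) and -0.33 ± 0.07 at 30 µg/kg (edgeR adjusted p = 0.000374). From 0.03 to 3 µg/kg the group means of Rhcg were 144, 149, 140, 129 and 126 CPM in order of dose, and the slope was -0.06 per dose step (edgeR adjusted p = 5.36e-07). The call at 30 µg/kg and the slope of Rhcg held in every alternative run.

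Rhbg, the basolateral counterpart, was scarce, with 15 to 71 counts per library in vehicle and at 30 µg/kg. It measured 1.73, 3.60, 2.33, 4.14 and 2.10 CPM in vehicle and 1.53, 1.13, 1.08, 0.842 and 2.29 CPM at 30 µg/kg. Of the 5 libraries at 30 µg/kg, 4 lay below vehicle and replicate 5 lay inside its range. The change was -0.99 ± 0.37 on the log2 scale (edgeR adjusted p = 0.066), which did not pass, while the slope of -0.12 per dose step did (edgeR adjusted p = 0.0246). The slope was lost in 5 of 50 alternatives, which were the stranded column 4 (edgeR adjusted p = 0.0747), the stranded column 3 (0.0937), the fit without the 30 µg/kg group (0.205), and leaving out vehicle replicate 4 (0.0622) or TCDD 30 replicate 4 (0.0553). In GENCODE M21, 61.4% of the exonic bases of Rhbg are shared on the same strand with the gene model Gm38392, so its counts are uncertain. The ratio of Rhcg to Rhbg differed by 0.68 between 30 µg/kg and vehicle (two-sided exact permutation p = 0.0794, adjusted p = 0.198).

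Principal cells also make Rhcg and Car2, so their markers were read in the same libraries. Of 10 listed genes 9 were tested. Of these 4 fell and 1 rose at 30 µg/kg, and the list summed to 667 to 1239 CPM against 947 to 1316 CPM in vehicle. The water channel Aqp3 changed by -0.25 ± 0.08 (edgeR adjusted p = 0.0279), and the sodium channel subunits Scnn1b and Scnn1g by -0.24 ± 0.08 (edgeR adjusted p = 0.0268) and -0.24 ± 0.08 (edgeR adjusted p = 0.0241). Gata3, a transcription factor, was the gene that rose, by 0.48 ± 0.13 (edgeR adjusted p = 0.00728). Avpr2 was not tested, at 0.262 CPM in vehicle. Within groups, Rhcg correlated with the summed principal cell markers at r = 0.48 and with Atp6v1b1 at 0.46 over the 40 libraries. The r of Rhcg was 0.02 with the summed further intercalated cell genes described below and -0.55 with the summed proximal tubule markers. For Car2 with the summed principal cell markers r was -0.40. The part of principal cells in the fall of Rhcg was not tested.

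Foxi1 was not called at any dose or in the slope. It measured 30.9 to 41.4 CPM in vehicle and 28.9, 26.2, 43.7, 50.2 and 39.1 CPM at 30 µg/kg. The widest spread of Foxi1 was in that group, with 2 libraries above and 2 below the vehicle range. The log2 change was 0.14, with a 95% interval of -0.09 to 0.37 (edgeR adjusted p = 0.476).

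Car2 measured 606, 558, 424, 455 and 445 CPM in vehicle and 458, 529, 430, 291 and 348 CPM at 30 µg/kg. Replicates 4 and 5 were below the vehicle range and the other 3 inside it. The log2 change was -0.27 ± 0.09 (SE; edgeR adjusted p = 0.0336), and the slope was not called (edgeR adjusted p = 0.0834). The call was lost in 7 of 19 alternatives, among them leaving out vehicle replicate 1 or 2 or TCDD 30 replicate 4 or 5 (-0.23 to -0.17). Car2 is also made outside intercalated cells. The summed proximal tubule markers measured 13666, 16659, 14911, 11721 and 10631 CPM in replicates 1 to 5 at 30 µg/kg, against 15881 to 18300 CPM in vehicle. Of 8 proximal tubule genes 4 fell and 1 rose at 30 µg/kg, and the 2 libraries lowest in the list's sum were the 2 lowest in Car2. Over the 40 libraries the within-group correlation of Car2 with that sum was 0.69. Macrophage markers, listed because osteoclast-like cells can make Atp6v0d2 and Car2, summed to 132 to 185 CPM in vehicle and 214 to 295 CPM at 30 µg/kg, and 7 of 11 tested rose, with Trem2 not tested. Their part in these values was not tested.

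**Figure D4:**
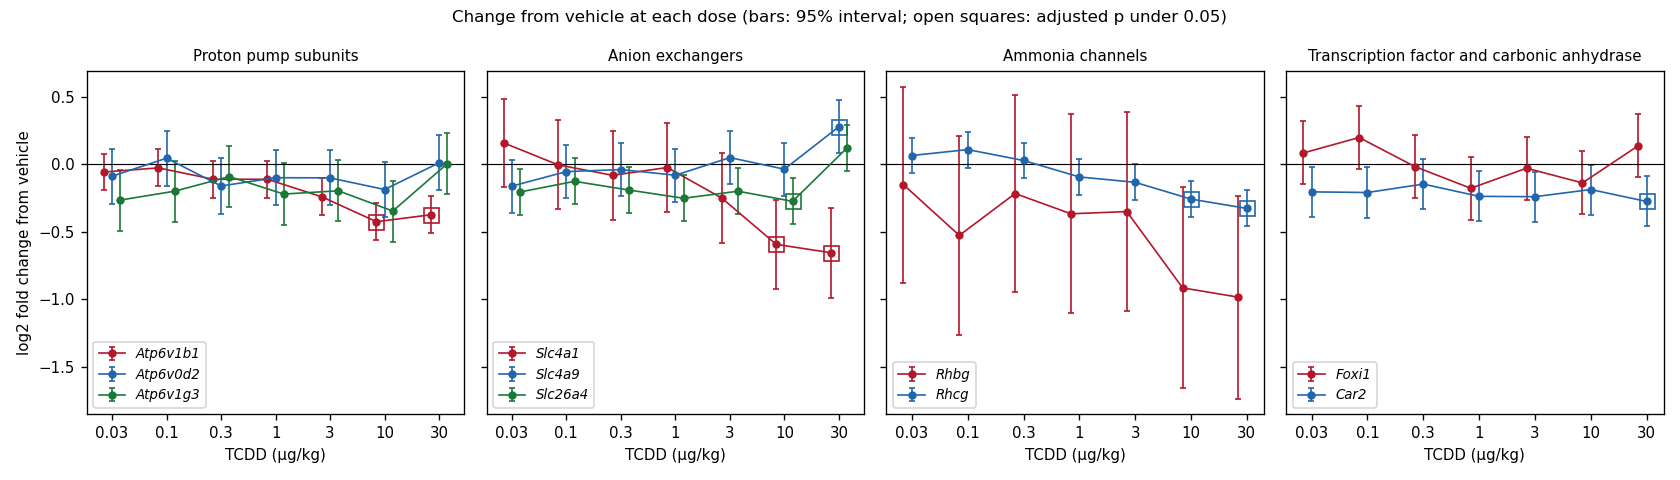
Log2 fold change from vehicle (vertical axis) at each TCDD dose for the 10 genes, in panels by role; bars are 95% intervals and open squares mark an adjusted p under 0.05. Called values appear only at 10 and 30 µg/kg. At 30 µg/kg Slc4a9 stood at 0.28 and Slc26a4, not called, at 0.12, against -0.65 for Slc4a1. At 10 µg/kg Slc4a9, not called, stood at -0.03, Slc26a4 at -0.27 and Slc4a1 at -0.59.

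From 0.03 to 3 µg/kg, 0 members were called by edgeR in any of the 5 comparisons with vehicle, in which 0%, 0%, 0.00577%, 0.513% and 1.09% of all genes were called in order of dose. Called at 1 or more of the doses up to 10 µg/kg were 4 members and 4.88% of all genes. At an unadjusted p under 0.05 in edgeR the counts of members were 3, 1, 1, 2 and 3 of 10, beside 5.67%, 5.53%, 5.23%, 7.1% and 8.95% of all genes. DESeq2 called 0 members at the 4 lowest doses and 1, Atp6v1b1, at 3 µg/kg, beside 0.0404%, 0%, 0.0173%, 0.761% and 1.6% of all genes. Most of these unadjusted values came from Car2 and Slc26a4, whose group means lay below vehicle at every dose up to 10 µg/kg. Car2 averaged 498 CPM in vehicle and 422 to 450 CPM in those 6 groups. The vehicle mean of Car2 rests on replicates 1 and 2, at 606 and 558 CPM, and replicates 3 to 5, at 424, 455 and 445 CPM, lay among the dosed libraries. Slc26a4 averaged 123 CPM in vehicle and 102 to 113 CPM in them. The slope of Slc26a4 over all doses was not called (edgeR adjusted p = 0.848), and without the 30 µg/kg group it was -0.03 per step (edgeR adjusted p = 0.00939).

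The titles of the libraries are numbers that pass through the doses in order from 1 to 27 and again from 28 to 53, with 3 vehicle and 3 TCDD 30 libraries in the first run and 2 of each in the second. The labels do not say what the numbers stand for. The mean log2 CPM at 30 µg/kg minus vehicle was -0.48 in the first run and -0.21 in the second for Atp6v1b1. It was -0.45 and -0.15 for Rhcg, and -0.82 and -0.54 for Slc4a1. For Car2 it was -0.15 and -0.50. For Slc4a9 it was 0.005 in the first run and 0.65 in the second. Atp6v0d2, Atp6v1g3, Foxi1 and Slc26a4 were below vehicle in the first run, by -0.18, -0.34, -0.10 and -0.01, and above it in the second, by 0.32, 0.49, 0.42 and 0.26. With a term for the run in the edgeR fit, the same number of members was called at 30 µg/kg and in the slope as without it. Vehicle and TCDD 30 are split alike over the runs, so this term could change their comparison little. It is the same for all doses, so it cannot show whether a change differed between the runs.

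Further genes known from intercalated cells moved in both directions. Of 18 tested, 7 rose and 4 fell at 30 µg/kg, with a median log2 change of 0.23, and 6 had a rising and 4 a falling slope. Kit, a receptor of intercalated cells and of mast cells, rose from a mean of 21.4 to 37.8 CPM (0.82 ± 0.09, edgeR adjusted p = 5.99e-09), with all 5 libraries above vehicle. Insrr, an alkali-sensing receptor of type B cells, fell from 64.6 to 50.2 CPM (-0.36 ± 0.07, edgeR adjusted p = 0.000128), with all 5 below. Adgrf5, a receptor of type A cells that endothelium makes too, rose from 93.3 to 138 CPM (0.57 ± 0.11, edgeR adjusted p = 0.000193). P2ry14, a UDP-glucose receptor of intercalated cells, rose from 3.27 to 5.84 CPM (0.83 ± 0.22, edgeR adjusted p = 0.00469).

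Acid-base and ammonia genes of the proximal tubule, where most ammonia is made, were tested as a list of 8. There 4 rose and 1 fell at 30 µg/kg, with a median log2 change of 0.14. The list summed to 3049, 4302, 6201, 3922 and 2931 CPM in replicates 1 to 5 at 30 µg/kg, against 3005 to 3652 CPM in vehicle. Slc38a3, the glutamine transporter SNAT3, rose from 21.5 to 57.2 CPM (1.41 ± 0.29, edgeR adjusted p = 0.000737). Car14, a membrane carbonic anhydrase, rose from 69.9 to 105 CPM (0.58 ± 0.15, edgeR adjusted p = 0.00484). Slc9a3, the sodium-proton exchanger NHE3, fell from 144 to 119 CPM (-0.27 ± 0.10, edgeR adjusted p = 0.049). Car4, a second membrane carbonic anhydrase, had a falling slope (edgeR adjusted p = 0.00991). In the neighbouring distal convoluted and connecting tubule 3 of 7 listed genes fell at 30 µg/kg, namely Pvalb, Slc8a1 and the calcium-binding protein gene Calb1. Calb1 changed by -0.53 ± 0.08 on the log2 scale (edgeR adjusted p = 2.61e-06).

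The members did not vary as 1 block between mice of the same group. Over 40 libraries, as deviations from group means, the highest correlation was between Slc4a9 and Slc26a4, both of type B cells (r = 0.60). Atp6v0d2 with Slc4a9 (0.55), Atp6v1b1 with Atp6v0d2 (0.50) and Atp6v1b1 with Slc4a9 (0.50) followed. Slc4a1 with Slc26a4 gave -0.23, and Car2 was negative with 8 of the other 9 members, down to -0.37 with Foxi1. Among the genes outside the 10 that followed the members' mean deviation most closely were Dazap1 (r = 0.68), Rpl37 (0.67), Rps28 (0.66) and Ost4 (0.66). None of these 4 was called at 30 µg/kg or in the slope by edgeR. These libraries share depth and tissue composition within a mouse, so the correlations are a description. Slc4a9 and Slc26a4 spread most at 30 µg/kg, with an SD of 29.8 and 27.4 CPM, against 14.5 and 7.69 CPM in vehicle. The 5 libraries of that group may therefore weigh most in their correlation.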

How the data were processed

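Right kidney RNA of 40 mice in 8 dose groups of 5 was analysed. Per the labels' protocols, RNA was extracted with TRIzol and libraries were made with an Ultra2 NEB kit. The authors deposited 1 STAR file of gene read counts (whole numbers) per library, which holds an unstranded and 2 stranded columns. The submitters' processing notes name FastQC 0.11.7, Trimmomatic 0.39, STAR 2.7.3a and DESeq2, and the builds GRCm39 and mm10 with no role for each. The annotation is not given in the sources used here. Column 4 held 49.0 to 49.6% of stranded counts, so the unstranded column was used, and reads from overlapping genes on either strand cannot be told apart. Lines naming no gene (per library 1.41 to 2.66% unmapped, 6.98 to 9.70% multimapping, 5.28 to 7.27% no feature and 5.40 to 5.98% ambiguous reads) were left out. The deposited table of the whole series was not used here.

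GENCODE M21 named 52083 of 55359 identifiers and gave exon lengths. Genes were filtered by group (filterByExpr), scaled by TMM and tested with edgeR 4.0.16 (R 4.3.3) in 1 quasi-likelihood fit of all 40 libraries, each dose against vehicle and a slope over dose rank, with Benjamini-Hochberg adjustment over 17345 genes. DESeq2 1.42.0 was an alternative. Each fit takes 1 spread per gene for all its groups, so its SE and p do not follow a spread that differs between groups. Ratios of counts (0.5 added) were tested by two-sided exact permutation. The fit was tested on simulated data with the same spread per gene in every group, so that test does not cover groups of unequal spread. Gene totals were 15278423 to 25575317, and the biological coefficient of variation was 17.1%. The labels give no replicate numbers, so numbers follow deposition order and pair nothing. No libraries of a group agreed within sampling noise. The members and gene lists were chosen with earlier results of these data known. Named from each list are the genes called at 30 µg/kg or in the slope, at most 4 by lowest slope p, and exceptions are stated. Some genes that the rules name are not reported here.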

Additional observations from a re-analysis of the deposited data

Results flagged for a closer look

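Among the 80 combinations of member and dose group, 3 had 1 library set apart from the other 4 by more than Dixon's 95% limit, which chance gives for about 1 in 20. Atp6v1b1 at 1 µg/kg measured 127 CPM in replicate 3, and the other 4 measured 104 to 109 CPM. Slc26a4 at 0.1 µg/kg measured 101 CPM in replicate 1, against 113 to 119 CPM. Rhcg at 0.03 µg/kg measured 157 CPM in replicate 5, against 138 to 143 CPM. The 3 values came from 3 different dose groups, and none of those groups had a called member.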

How the results depend on the processing

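Atp6v1b1 and Rhcg kept their calls at 30 µg/kg in all 19 alternatives and their slopes in all 50, and Slc4a1 kept its slope in all 50. The number of members called at 30 µg/kg (5) was 3 with the stranded column 4. It was 2, Atp6v1b1 and Rhcg, in a fit of vehicle and 30 µg/kg alone. Of all genes, 15.9% were called in the main fit, 13.6% with column 4 and 6.28% with vehicle and 30 µg/kg alone. That last fit has fewer samples and does not share the spread of the other groups, and the part of each was not tested. For the other counts below, shares of all genes are not given. Leaving out 1 library gave 3 to 6, with 3 without TCDD 30 replicate 4. The number called at 0.03 to 10 µg/kg (4, all at 10 µg/kg) was 1 with library size alone, 2 with no filter and 2 with the stranded column 3, an alternative chosen after seeing the data. Leaving out 1 library gave 2 to 5, with 2 without vehicle replicate 2 or 3 or TCDD 10 replicate 1, 2, 4 or 5. Atp6v1b1 was called there in all 44 alternatives, Rhcg in 38, Slc4a1 in 37 and Slc26a4 in 12. The number with a slope (5) was 3 with the stranded column 4, and 3 to 6 without 1 library, with 3 without vehicle replicate 4 or TCDD 30 replicate 4. Direction changed for some results, none of which passed in the main analysis. For Atp6v1g3 the slope was 0.002817 with library size alone and -0.0158 to 0.000367 without 1 library, and its change at 30 µg/kg was -0.0386 with column 4 and -0.0841 to 0.0848 without 1 library. For Atp6v0d2 the change at 30 µg/kg was -0.0151 with column 3 and -0.0607 to 0.0758 without 1 library. The slope of Slc26a4 was -0.0336 without the 30 µg/kg group, where it was called (edgeR adjusted p = 0.00939). Without 1 library it was -0.00808 to 0.00925. Without 1 library the difference in the log2 ratio of Atp6v1g3 to Atp6v1g1 was -0.000391 to 0.253. That of Slc26a4 to Slc4a1 kept its direction, at 0.542 to 0.979. Rhbg at 30 µg/kg passed in 3 of 19 alternatives, DESeq2 and leaving out vehicle replicate 1 or TCDD 30 replicate 5. Slc26a4 at 30 µg/kg passed in 1, without TCDD 30 replicate 1. Where no other cause is named, the cause was not tested. Low counts, 15 to 71 per library in vehicle and at 30 µg/kg, and exons shared with Gm38392 limit Rhbg most. No paired analysis was possible because the labels give no replicate numbers.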
